A study of Xenopus laevis with 30 samples.

Results

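The midbrain of Xenopus laevis tadpoles at Nieuwkoop and Faber (NF) stage 61 was compared with the midbrain at stages 44 and 46. The comparison used 9 of the 30 samples of the series, 3 from stage 61 and 6 from the early stages (3 from stage 44 and 3 from stage 46), chosen by their tissue and stage labels. All 9 were total RNA from tadpole midbrain, with no treatment or transgene named in the labels, so stage was the labelled difference between the groups. The authors describe albino tadpoles of both sexes from a laboratory colony or a supplier, but give another stock identifier where they describe the sampling. The RNA was amplified to cDNA before sequencing, and 3 midbrain samples of stage 55 shared the fit and are given as the point in between. Which clutch or how many animals went into a sample is not stated in the labels, so the p values measure the spread between these samples.

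Stages 44 and 46 are young tadpoles in which the midbrain is still adding neurons. Stage 61 falls in metamorphic climax, when thyroid hormone is at its height and the tadpole is remodelled into a frog. Thyroid hormone acts through the nuclear receptors TRα and TRβ, deiodinases in the tissue activate or destroy it, and in vertebrate brains it is known to promote the maturation of myelin-forming oligodendrocytes. X. laevis is an allotetraploid, and most genes have a copy on the long (.L) and a copy on the short (.S) chromosome of a pair. The copies are named here separately, but how reads that fit both copies were counted is not stated, so values of near-identical copies are uncertain.

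Each of the 12 midbrain samples fitted held between 6960387 and 11016124 gene counts. Levels are given as CPM, a gene's counts scaled to a library of fixed size after TMM normalization, and a difference is the log2 fold change between stage 61 and the mean of stages 44 and 46, with its standard error (SE), from edgeR's quasi-likelihood test. A gene was called where its Benjamini-Hochberg adjusted p was under 0.05 and the levels differed by more than 2 on the log2 scale. CPM is not corrected for gene length, so levels are compared between samples and not between genes. In bulk tissue, fewer cells of a type and less RNA per cell cannot be told apart.

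Of 26681 genes tested, 873 (3.27%) were called higher at stage 61 and 1330 (4.98%) were called lower. These shares are the ones to set beside each count of called list members below. By the adjusted p alone, 5807 genes (21.8%) were higher and 5874 (22%) lower, and the median log2 fold change of all genes was 0.01. Among the genes called higher, 416 of 873 were below a mean of 5 CPM at stage 61 and 40 at 100 CPM or more. Together they summed to 4050 CPM in the early stages, 11600 CPM at stage 55 and 26500 CPM at stage 61. Their highest stage mean was at stage 61 in 738 genes and at stage 55 in 135. The median log2 fold change was 1.90 from the early stages to stage 55 and 0.83 from stage 55 to stage 61. Those called lower summed to 40400 CPM in the early stages, 25500 CPM at stage 55 and 4680 CPM at stage 61, and their median log2 fold changes over the same steps were -0.79 and -2.39. On the log2 scale the larger step thus came before stage 55 for the genes called higher and after it for those called lower. In the lone sample of stage 66, after metamorphosis, 819 of the 873 genes lay above their early mean. The genes were selected for low early levels and the share of all genes was not taken, so the count is description only. The stage 66 sample was scaled with all 15 midbrain samples, the early means with the 12 of the fit.

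**Figure D1:**
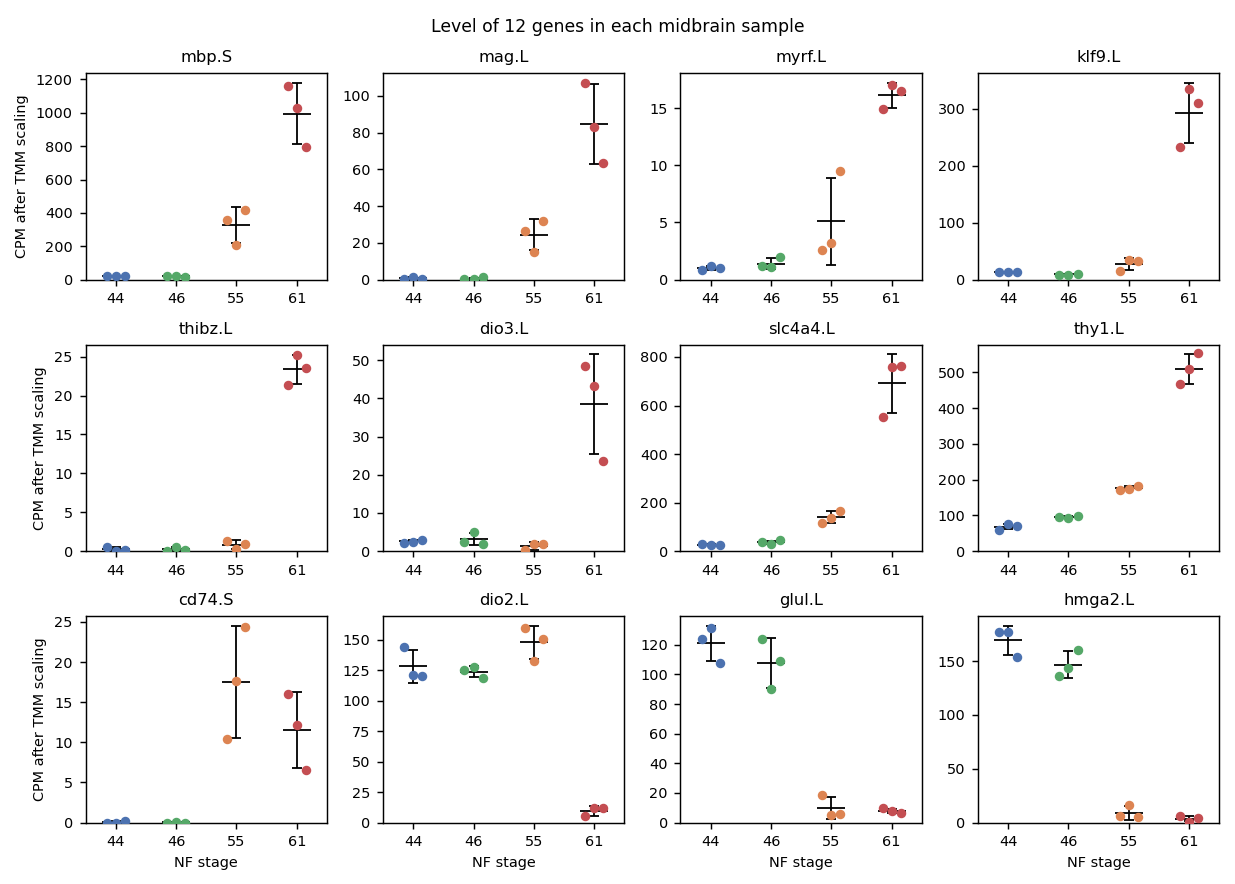
CPM after TMM scaling (vertical axis, linear from 0) of 12 genes in each midbrain sample by NF stage (horizontal axis). Points are samples (n = 3 per stage), the bar is the stage mean and the whiskers are 1 SD, cut at 0. Myelin genes mbp.S and mag.L and their regulator myrf.L were already raised at stage 55, thibz.L and dio3.L were near their early level there, and glul.L and hmga2.L had fallen by stage 55 while dio2.L had not.

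Regional markers were checked next. Of 62 hox genes, which mark hindbrain and spinal cord, 0 passed the filter on low counts. Of 30 midbrain markers 0 were called higher and 5 lower, 26 had a negative log2 fold change (median -0.90), and the summed level was 963 to 1120 CPM early and 621, 620 and 625 CPM at stage 61. The tectal and isthmic gene en2.S, 1 of the 4 with a positive value, had a mean of 20 CPM in the early samples and 32.9 CPM at stage 61, and otx2.L, a gene of forebrain and midbrain, had 85.9 and 42.9 CPM. Summed over 22 forebrain markers, the early samples had between 607 and 633 CPM and the stage 61 samples 266, 323 and 294 CPM. Markers of neighbouring tissues were also mostly higher in the early samples. For skeletal muscle, 12 of 24 tested markers were called lower at stage 61, with a summed level of 58.5 to 360 CPM early and 40 to 44.2 CPM at stage 61. The high values belonged to stage 44 replicates 1 and 2. For photoreceptors, 13 of 20 were called lower, with 70.9 to 211 CPM early and 53.5 to 58 CPM at stage 61, where rcvrn.2.S and pde6b.L had no counts. For epidermis 13 of 22 were called lower and 0 higher. For cartilage 5 of 11 were called lower and 2 higher, among them chad.L (3.23, SE 0.75). The prolactin gene prl.2.S, which encodes a pituitary hormone, had between 53.7 and 148 CPM (median 93.7) early and 0, 0 and 0.346 CPM at stage 61. How far such tissue contributes to genes called lower was not tested. For blood vessel endothelium, the summed level was 465 to 526 CPM early and 479, 494 and 484 CPM at stage 61.

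**Figure D2:**
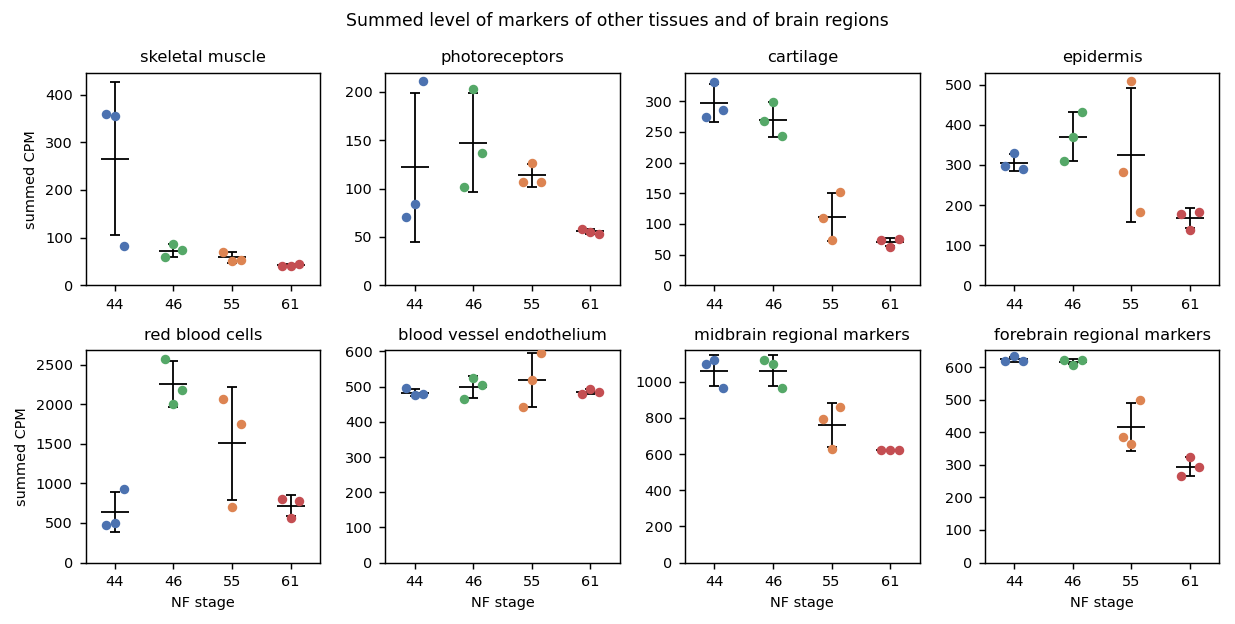
Summed CPM (vertical axis, linear from 0) of markers of 6 other tissues and of 2 brain regions in each midbrain sample by NF stage (horizontal axis), with the stage mean and 1 SD (n = 3). Muscle markers were high in 2 of the 3 stage 44 samples, red blood cell markers were highest at stage 46, and endothelial markers stayed near 500 CPM throughout.

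Myelin genes rose steeply. Myelin is the lipid-rich sheath that oligodendrocytes wrap around axons. Of 37 tested genes of myelin, 17 (45.9%) were called higher and 2 (5.41%) lower, against 3.27% and 4.98% of all genes, and the median log2 fold change was 1.58. The early samples had between 294 and 345 CPM, stage 55 had a mean of 1130 CPM and the stage 61 samples had 3540, 2940 and 2380 CPM over all members together. Myelin basic protein compacts the sheath. Its copy mbp.S had between 15.5 and 22.2 CPM (median 20.7) early and 1160, 1030 and 798 CPM at stage 61 (log2 fold change 5.64, SE 0.18, edgeR adjusted p = 1.3e-14), and mbp.L rose by 4.50 (SE 0.16). The gene was thus expressed in every early sample, and the stage 61 values were far apart from the early ones.

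The adhesion protein of the innermost myelin layer, mag, rose from 0.0956 to 1.34 CPM (median 0.447) in mag.L to 107, 83.1 and 63.6 CPM, a log2 fold change of 6.97 (SE 0.36). Enzymes that make the galactolipids of myelin rose as well. The galactosyltransferase gene ugt8.L went from at most 0.852 CPM early to 15, 25.6 and 9.91 CPM at stage 61 (log2 fold change 5.24, SE 0.42), the fatty acid hydroxylase gene fa2h.L had a log2 fold change of 5.25 (SE 0.59), and the sulfotransferase gene gal3st1.S one of 2.65 (SE 0.38). Further members called higher were the 2',3'-cyclic nucleotide phosphodiesterase cnp (cnp.L 2.79, cnp.S 4.53), the cytoskeletal gene ermn (ermn.L 5.25, ermn.S 2.51) and the nodal matrix gene hapln2.S (4.49). The members called lower, pmp22.S (-2.24) and pmp2.S (-2.74), are known from the myelin of peripheral nerves. The call of pmp2.S was lost under 2 alternative settings.

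Regulators of the oligodendrocyte lineage split. Of 24 tested genes, 4 were called higher and 2 lower. The transcription factor gene myrf.L, which switches on myelin genes, had between 0.833 and 1.96 CPM early and 14.9, 17 and 16.5 CPM at stage 61 (log2 fold change 3.74, SE 0.36, adjusted p = 4.08e-08). The lineage factor sox10.L rose by 2.46 (SE 0.28) and the lysophosphatidic acid receptor lpar1.S by 2.20 (SE 0.21). By the adjusted p alone 16 of the 24 were higher and 5 lower, against 21.8% and 22% of all genes. The 5 lower were both copies of nkx2-2 and of nkx6-2, transcription factors of the lineage, and enpp6.L, while the progenitor receptor copies pdgfra.S and pdgfra.L were higher by 1.21 (SE 0.17) and 1.02 (SE 0.18). The copy nkx6-2.S had between 6.23 and 10.9 CPM early and 0.220, 1.42 and 1.04 CPM at stage 61 (log2 fold change -3.22, SE 0.43), and enpp6.L, a marker of newly forming oligodendrocytes in mice, fell by 2.16 (SE 0.54). The call of enpp6.L was lost under 1 of the 21 alternative settings.

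**Figure D3:**
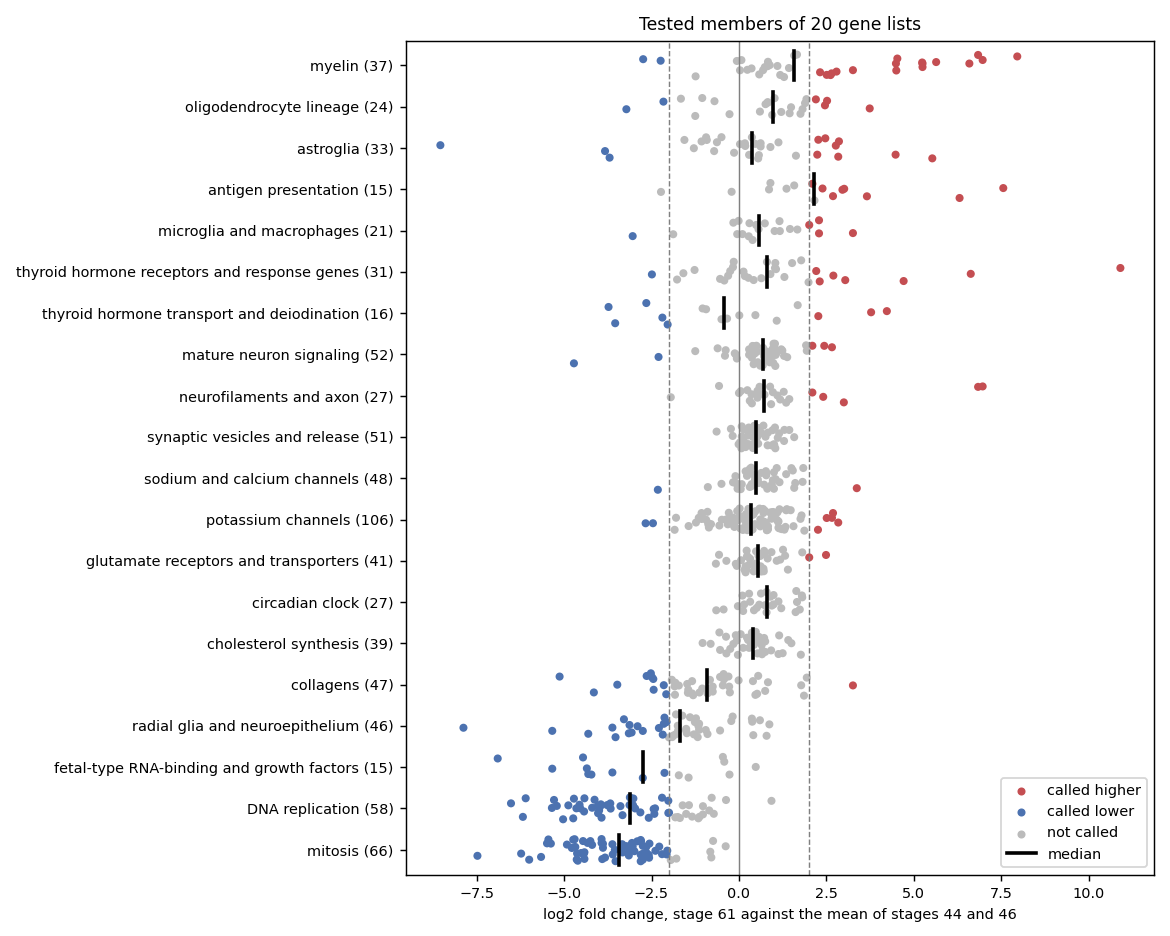
Log2 fold change at stage 61 against the mean of stages 44 and 46 (horizontal axis) of each tested member of 20 gene lists (rows, number tested in brackets). Red points were called higher, blue points called lower and grey points not called, black bars are list medians and dashed lines mark the threshold of 2. Myelin and antigen presentation hold the largest shares of red points, synaptic and channel lists lie slightly to the right of 0, and the cell division lists lie far to the left.

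Of 31 tested receptors, cofactors and response genes of thyroid hormone, 7 (22.6%) were called higher and 1 (3.23%) lower, against 3.27% and 4.98% of all genes. In 6 of the 7, all but mmp11.L, the larger log2 step came between stage 55 and stage 61, a count for which the share of all genes was not taken. The leucine zipper gene thibz, a known direct target of the hormone in frogs, was nearly silent before. Its copy thibz.S had no counts in the 6 early samples and 11.1, 36.9 and 27.3 CPM at stage 61, which is at least 498-fold higher against a floor of 3 counts over the early group. The copy thibz.L had at most 0.555 CPM early, 0.834 CPM at stage 55, and 21.4, 25.2 and 23.5 CPM at stage 61 (log2 fold change 6.63, SE 0.50). In the lone stage 66 sample the copies were back at 1.61 and 1.45 CPM.

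The zinc finger gene klf9.L, another direct target, had between 8.89 and 14.2 CPM (median 11.4) early, 27.2 CPM at stage 55 and 233, 334 and 311 CPM at stage 61 (log2 fold change 4.71, SE 0.19, adjusted p = 4.3e-13). For the receptors themselves, thrb.L (TRβ) rose from 0.933 to 2.08 CPM early to 14.6, 11 and 9.10 CPM, a log2 fold change of 3.04 (SE 0.33), and thrb.S rose by 2.21 (SE 0.43). The TRα copies rose less, thra.S by 1.78 (SE 0.24, adjusted p = 3.67e-06) and thra.L by 1.04 (SE 0.20, adjusted p = 0.000274), and they had reached 19 and 25.4 CPM at stage 55. Nuclear factor I genes, transcription factors of neural and glial maturation, were also raised. The copy nfic.L had 44.9, 44.4 and 48.7 CPM at stage 61 against at most 9.08 CPM early (log2 fold change 2.70, SE 0.19). The related nfix.L, which is not on the list, had between 1.07 and 2.34 CPM early, 21.4 CPM at stage 55 and 114, 107 and 135 CPM at stage 61 (log2 fold change 6.04, SE 0.33). Its larger log2 step came before stage 55 (3.58, against 2.47 after it).

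The enzymes that set the local hormone level moved in opposite directions. The activating deiodinase gene dio2.L had between 119 and 144 CPM (median 123) early, 148 CPM at stage 55 and 5.05, 12 and 11.6 CPM at stage 61, a log2 fold change of -3.73 (SE 0.21, adjusted p = 1.15e-11). The inactivating deiodinase gene dio3.L had between 1.87 and 4.90 CPM (median 2.49) early, 1.35 CPM at stage 55 and 48.5, 43.2 and 23.7 CPM at stage 61, a log2 fold change of 3.78 (SE 0.34, adjusted p = 3.5e-08). At stage 55 the mean of dio2.L was still above, and that of dio3.L still below, the early median. The second copy, dio2.S, fell by 2.65 (SE 0.53). Among transporters, slc7a8.S fell by 2.19 (SE 0.18), slc16a10.S by 3.54 (SE 0.79) and the carrier slco1c1.L, a thyroxine transporter of brain vessels and glia, rose by 2.27 (SE 0.41) from a median of 1.33 CPM early to 9.11, 6.94 and 7.83 CPM. The call of slco1c1.L was lost under 2 alternative settings. The hormone-binding protein gene crym.L rose by 4.23 (SE 0.81). At stage 55 slco1c1.L had a mean of 14.2 CPM, above its early values, and crym.L had 2.40, 4.96 and 0.0975 CPM, of which the last lay within its early range.

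Corticosteroids act together with thyroid hormone at climax. Of 34 tested genes of corticosteroid response, 3 (8.82%) were called higher and 5 (14.7%) lower, against 3.27% and 4.98% of all genes, with a median near 0 (-0.07). The klf9.L and glul copies described elsewhere are among them, since both lists hold them. Of those called lower, glul.L was already down to a mean of 9.78 CPM at stage 55, and hsd11b1.L had a log2 fold change of -2.98 (SE 0.59). The mineralocorticoid receptor was raised in both copies, nr3c2.L from at most 22.9 CPM early to 76.8, 81.5 and 84.1 CPM (log2 fold change 2.05, SE 0.14) and nr3c2.S by 2.46 (SE 0.26). The call of nr3c2.L, close to the threshold, was lost under 5 settings. The glucocorticoid receptor copies had log2 fold changes of -0.12 (nr3c1.L, adjusted p = 0.59) and 0.00 (nr3c1.S, adjusted p = 0.988).

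Astroglial genes went both ways. Of 33 tested, 8 (24.2%) were called higher and 3 (9.09%) lower, against 3.27% and 4.98% of all genes, with a median of 0.37. Among those lower, atp1b2.S had 2.1 to 9.27 CPM early and no counts at stage 61. Its early values were highest in stage 44 replicate 3 and stage 46 replicate 2 (8.82 and 9.27 CPM). The photoreceptor gene rcvrn.2.S was highest in the same samples (9.11 and 10.4 CPM), and whether retinal tissue contributed was not tested. The sodium bicarbonate cotransporter gene slc4a4.L, which buffers acid around neurons, had between 25.2 and 43.9 CPM (median 28.5) early and 552, 758 and 763 CPM at stage 61 (log2 fold change 4.48, SE 0.14, adjusted p = 2.67e-15). The gap junction gene gja1.L (connexin 43) rose from at most 9.44 CPM to 70.6, 48.7 and 52.6 CPM (log2 fold change 2.86, SE 0.20), and the potassium channel gene kcnj10.L, which clears potassium from the extracellular space, from at most 7.56 CPM to 34.3, 29.7 and 46.3 CPM (log2 fold change 2.84, SE 0.21). The apolipoprotein gene clu.L (clusterin) rose from at most 23.9 CPM to 118, 63.8 and 93.4 CPM (log2 fold change 2.77, SE 0.27) and apoe.L from at most 2.52 CPM to 8.34, 3.96 and 7.60 CPM (log2 fold change 2.47, SE 0.46). On the list of lipid transport, apoe.L was the 1 of 15 genes called higher, 3 were called lower (the lipoprotein lipase copies lpl.L and lpl.S, and apob.L), and the median was -0.28. In apob.L, with a mean of 0.782 CPM early, the groups overlapped and the call was lost under 7 settings. Both copies of the glial adhesion gene hepacam rose, hepacam.S by 2.27 (SE 0.25) and hepacam.L by 2.24 (SE 0.31).

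Glutamine synthetase fell. This enzyme, which turns glutamate and ammonia into glutamine, is encoded by glul, and glul.L had between 90.4 and 131 CPM (median 117) early and 9.55, 7.78 and 6.68 CPM at stage 61, a log2 fold change of -3.83 (SE 0.38, adjusted p = 6.03e-06). Its copy glul.S fell by 3.70 (SE 0.48). The ammonium transporter gene rhbg.L had between 60.4 and 73.9 CPM early and 0, 0 and 0.115 CPM at stage 61. The glutamate transporter gene slc1a2.L was lower by -1.29 (SE 0.11), short of the threshold, whereas slc1a3.L was higher by 0.37 (SE 0.14, adjusted p = 0.0321) with overlapping groups. Of the 41 glutamate receptors and transporters, 0 were called lower.

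Antigen presentation was the list with the largest share called higher among those examined. Of 15 tested genes, 8 (53.3%) were called higher and 0 lower, against 3.27% and 4.98% of all genes, with a median of 2.16. The levels were low and 7 genes of the list did not pass the filter. Members such as cd74.S and ciita.S, with 3 and 4 counts over the early samples, passed it only through later stages. The share is therefore description only. The invariant chain gene cd74.S, which guides MHC class II molecules, had at most 0.192 CPM early, 17.5 CPM at stage 55 and 16, 12.2 and 6.57 CPM at stage 61 (log2 fold change 7.56, SE 0.54, adjusted p = 5.12e-10). The tapasin gene tapbp.L, which loads MHC class I, had at most 4.57 CPM early and 9.99, 20.5 and 14.3 CPM at stage 61 (log2 fold change 2.10, SE 0.25). The class I light chain b2m.L rose by 1.58 (SE 0.23, adjusted p = 1.42e-05). The rise was in place at stage 55, where the summed level of the list was 120 CPM, against 28.3 to 35.8 CPM early and 113, 126 and 76.8 CPM at stage 61. Early and stage 61 samples overlapped in ciita.S, hla-dqa2.L and mhc2a.S, whose calls were lost under 3, 11 and 4 settings.

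Microglia and macrophage genes were scarce. Of 21 tested, 4 (19%) were called higher and 1 (4.76%) lower, against 3.27% and 4.98% of all genes. The complement genes c1qc.L (log2 fold change 3.26, SE 0.75) and c1qa.L (2.29, SE 0.67) reached means of 2.14 and 2.60 CPM at stage 61, and the call of c1qa.L was lost under 2 settings. The others called higher were the copies of the myeloid factor irf8, irf8.L (2.01) and irf8.S (2.29), whose calls were lost under 11 and 8 settings. The leukocyte gene ptprc.L had 0.972 CPM early and 1.16 CPM at stage 61 (adjusted p = 0.758), and the myeloid factor spi1.L had 0.520 and 1.06 CPM (adjusted p = 0.371). The summed level was 29.8 to 47.3 CPM early and 71.5, 42 and 33.3 CPM at stage 61, so the groups overlapped. Of 23 tested interferon response genes, 2 (8.7%) were called higher and 1 (4.35%) lower. Their summed level was highest at stage 55, with a mean of 280 CPM, against 148 to 169 CPM early and 180, 192 and 213 CPM at stage 61. The transcription factor gene irf3.S went from at most 0.445 CPM early to 2.88 CPM at stage 55 and 2.20, 6.65 and 4.49 CPM at stage 61 (log2 fold change 4.78, SE 0.72). Of 16 complement genes 3 (18.8%) were called higher and 3 (18.8%) lower. The lower ones, cfp.L (-2.15), cfb.L (-2.20) and cfd.L (-5.74), belong to the alternative pathway. The call of cfb.L was lost under 1 setting.

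**Figure D4:**
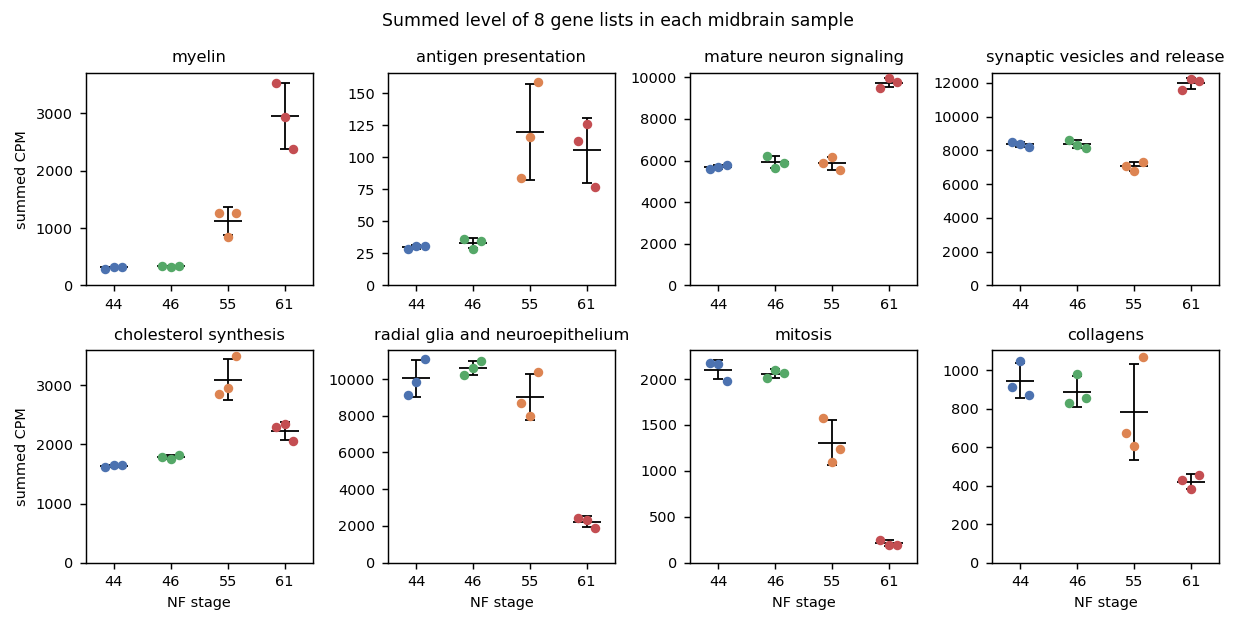
Summed CPM (vertical axis, linear from 0) of 8 gene lists in each midbrain sample by NF stage (horizontal axis), with the stage mean and 1 SD (n = 3). Myelin rose at each step, antigen presentation was up by stage 55 and synaptic vesicle genes were above their early level at stage 61 but not at stage 55. The summed radial glia level, most of it from fabp7.L at the early stages, was largely kept until stage 55.

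Many genes of neuronal signaling were modestly higher. Of 52 tested genes of mature neuron signaling, 41 were higher by the adjusted p alone, against 21.8% of all genes, yet 3 were called higher at the threshold of 2, and the median log2 fold change was 0.70. Summed, the list held between 5590 and 6230 CPM early, 5880 CPM at stage 55 and 9510, 9970 and 9760 CPM at stage 61. Of 51 synaptic vesicle and release genes, 32 were higher by the adjusted p and 0 were called, with a median of 0.48. The vesicle SNARE gene vamp2.S had 952 to 1200 CPM early and 1470, 1740 and 1570 CPM at stage 61 (log2 fold change 0.56, SE 0.11). The kinase gene camk2b.L rose by 1.04 (SE 0.11) and the calcium sensor gene vsnl1.S by 1.29 (SE 0.13). A larger change was that of thy1.L, a surface glycoprotein of mature axons, with 60.1 to 98.9 CPM (median 84.1) early and 467, 509 and 553 CPM at stage 61 (log2 fold change 2.66, SE 0.10, adjusted p = 3.84e-14). The calcium buffer gene calb2.L (calretinin) rose by 2.44 (SE 0.13), with 101 CPM at stage 55 and 150, 167 and 124 CPM at stage 61. The calcium-dependent kinase gene camk4.S had at most 8.46 CPM early and 26.2, 28.4 and 24.4 CPM at stage 61 (log2 fold change 2.10, SE 0.22), and its call was lost under 2 settings. The members called lower were the dopamine signaling gene ppp1r1b.S, with 33.3 to 48.7 CPM early and 7.68, 11.7 and 5.18 CPM at stage 61 (log2 fold change -2.30, SE 0.26), and the parvalbumin copy pvalb.2.L (-4.72, SE 1.09), which had 36.8 and 22.9 CPM in stage 44 replicates 1 and 2, the samples high in muscle markers, and at most 3.20 CPM in the other early samples, and lost the call under 3 settings.

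Axonal genes included several that form the node of Ranvier and the caliber of large axons. Of 27 tested genes of neurofilaments and axon, 5 (18.5%) were called higher and 0 lower, against 3.27% and 4.98% of all genes. The 5 include mag.L, the largest value of the list (6.97), and mag.S, both already counted in the myelin list. The paranodal gene cntnap1.L, which anchors myelin loops to the axon, had between 23.3 and 33.2 CPM early and 195, 220 and 256 CPM at stage 61 (log2 fold change 3, SE 0.13, adjusted p = 3.46e-13). The heavy neurofilament gene nefh.L had at most 23.8 CPM early and 83.7, 85.1 and 139 CPM at stage 61 (log2 fold change 2.41, SE 0.18), and nefh.S rose by 2.10 (SE 0.22), a call lost under 4 settings. The sodium channel subunit scn4b.S rose by 3.37 (SE 0.42), and scn2b.L by 1.82 (SE 0.10) from 58.3 to 67.6 CPM early to 233, 240 and 211 CPM. Of 48 sodium and calcium channel genes, scn4b.S was the 1 called higher (2.08%). The 1 called lower (2.08%) was cacna1s.S (-2.32), a call lost under 11 settings. By the adjusted p alone 28 of the 48 were higher and 1 lower, against 21.8% and 22% of all genes.

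Among 106 tested potassium channel genes, 5 (4.72%) were called higher and 2 (1.89%) lower, against 3.27% and 4.98% of all genes. By the adjusted p alone 43 were higher and 9 lower, against 21.8% and 22% of all genes. The summed level was 1710 to 1900 CPM early and 2370, 2590 and 2560 CPM at stage 61. The calcium-activated channel gene kcnn3.S had between 11.4 and 15.8 CPM early and 75.3, 96.8 and 86.2 CPM at stage 61 (log2 fold change 2.66, SE 0.15), and the modulatory subunit kcns2.L rose by 2.51 (SE 0.18). Of 41 glutamate receptor and transporter genes, 26 were higher by the adjusted p and 2 were called, grm8l.S (2.49, SE 0.24) and the NMDA receptor subunit gene grin2c.L (2.01, SE 0.55). Of 30 GABA and glycine genes 2 were called higher, the adult-type glycine receptor subunit gene glra1.S, with at most 9.90 CPM early and 31.2, 25.5 and 40.8 CPM at stage 61 (log2 fold change 2.17, SE 0.22), and gabrb2.S (2.03, SE 0.22). The calls of grin2c.L, glra1.S and gabrb2.S, near the threshold, were lost under 10, 2 and 9 settings.

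Neuropeptide genes were modestly higher, with 28 of 65 higher and 6 lower by the adjusted p alone, against 21.8% and 22% of all genes (median 0.45). Their summed level was 4390 to 5880 CPM early and 6130, 6620 and 6840 CPM at stage 61. At the threshold of 2, 2 (3.08%) were called higher and 1 (1.54%) lower, against 3.27% and 4.98% of all genes. Both of those higher encode gastrin-releasing peptide. The copy grp.L had between 0.416 and 4.47 CPM (median 2.41) early, 22.7 CPM at stage 55 and 23.7, 20.9 and 18.3 CPM at stage 61 (log2 fold change 3.25, SE 0.28), and grp.S rose by 4.63 (SE 0.77). The pituitary gene pomc.L had 82.6 to 180 CPM early and 13.3, 2.69 and 11.1 CPM at stage 61, but its call (adjusted p = 0.0486) was lost under 16 of 21 settings. Monoamine and acetylcholine genes were mixed, with 2 of 26 called higher, 3 lower and a median of -0.43. The tyrosine hydroxylase copy th.L, the first enzyme of dopamine synthesis, fell by 2.25 (SE 0.27), a call lost under 1 setting, while th.S had a log2 fold change of -0.24 (adjusted p = 0.322).

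The matrix around mature neurons was raised in part. Of 19 perineuronal genes, 3 were called higher and 2 lower. The core proteoglycan gene acan.L (aggrecan) had between 0.746 and 2.40 CPM early and 9.88, 10.3 and 11.1 CPM at stage 61 (log2 fold change 3.04, SE 0.34), and the link protein gene hapln4.L had at most 1.49 CPM early and 4.94, 6.23 and 7.60 CPM at stage 61 (log2 fold change 6.21, SE 0.88). The link protein hapln3 was lower in both copies (hapln3.L -4.10, hapln3.S -4.13). Of 47 collagen genes 10 were called lower and 1 higher. Among those lower was col2a1.L, a cartilage collagen that is also expressed in the embryonic neural tube, from 96.9 to 134 CPM early to 10.2, 8.07 and 12.4 CPM. Laminin β1, a basement membrane chain, was lower in both copies (lamb1.L -2.45, lamb1.S -3.72).

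Genes of matrix proteases, their inhibitors and ADAMTS-like proteins went both ways. Of 61 tested, 8 (13.1%) were called higher and 5 (8.2%) lower, against 3.27% and 4.98% of all genes. The list was drawn by name. It includes adamtsl2.L (2.95) and adamtsl3.L (2.79) among those higher, and adamtsl4.S (-3.77) and adamtsl5.L (-6.01) among those lower. The metalloprotease gene mmp23b.L had between 0.288 and 2.94 CPM (median 1.04) early, 2.07 CPM at stage 55 and 15, 10.6 and 10.5 CPM at stage 61 (log2 fold change 3.19, SE 0.50). The gene adamts4, whose product cuts aggrecan, rose in both copies, adamts4.L from at most 2.45 CPM to 4.06, 7.36 and 6.91 CPM (log2 fold change 2.29, SE 0.44) and adamts4.S by 2.76 (SE 0.72), a call lost under 1 setting. Stromelysin 3 (mmp11.L), a thyroid hormone response gene of frog metamorphosis, was called at 2.31 (SE 0.59), but its level was 3.66 CPM at stage 55 and 2.85, 2.69 and 3 CPM at stage 61, and the call was lost under 2 settings. In mmp9.L the groups overlapped.

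Most mural cell genes of vessels had negative log2 fold changes (11 of 14, median -0.78), while 1 marker of pericytes rose. Their summed level was 305 to 355 CPM early and 266, 229 and 289 CPM at stage 61. The pericyte gene higd1b.L had between 5.43 and 7.46 CPM early, 16.5 CPM at stage 55 and 56.3, 39.8 and 40.3 CPM at stage 61 (log2 fold change 2.88, SE 0.20). Of 14 mural cell genes it was the 1 called higher, and the 3 called lower were the contractile genes cnn1.S, myh11.L and acta2.S (-2, -2.06 and -2.40), of which cnn1.S lost the call under 7 settings. Of 32 endothelial genes 0 were called higher and 2 lower.

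Metabolic lists moved by less than the threshold. By the adjusted p alone, 21.8% of all genes were higher and 22% lower, the shares to set beside the counts of this paragraph. Of 39 cholesterol synthesis genes, 19 were higher by the adjusted p, 3 were lower and 0 were called in either direction. In 33 of these 39 the highest mean was at stage 55, a count for which the share of all genes was not taken. Their summed level was 3100 CPM at stage 55, against 1620 to 1820 CPM early and 2290, 2340 and 2060 CPM at stage 61. Of 35 glycolysis genes, 22 were higher by the adjusted p and 1 was called, the phosphofructokinase gene pfkm.L, with at most 11.6 CPM early and 65.5, 77.1 and 60.4 CPM at stage 61 (log2 fold change 2.93, SE 0.18). Of 27 clock genes, 16 were higher by the adjusted p and 1 was lower, with 0 called and a median of 0.79. Of 44 immediate early genes, 20 were higher and 6 lower by the adjusted p, and 2 were called, npas4.L (2.11, SE 0.23) and fosl2.S (2.14, SE 0.36), which lost the call under 4 and 3 settings.

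Among the most abundant genes called higher, several fell outside these groups. The chromatin gene jarid2.S, a partner of the Polycomb complex, had between 430 and 571 CPM early, 1340 CPM at stage 55 and 1840, 1860 and 2420 CPM at stage 61 (log2 fold change 2.06, SE 0.15). The desaturase gene fads2.L, which makes polyunsaturated fatty acids, had at most 313 CPM early and 1340, 1220 and 992 CPM at stage 61 (log2 fold change 2.04, SE 0.11), and the selenium carrier sepp1.L (selenoprotein P) had at most 268 CPM early and 1100, 774 and 952 CPM (log2 fold change 2.15, SE 0.13). The gene ndrg2.S, expressed in mammalian astrocytes, rose by 2.03 (SE 0.12). The calls of jarid2.S, fads2.L and ndrg2.S lay close to the threshold and were lost under 3, 3 and 7 settings. The acyl-CoA binding gene acbd7.L went from at most 5.69 CPM to 306, 236 and 200 CPM (log2 fold change 6.16, SE 0.18, adjusted p = 7e-16), with 124 CPM already at stage 55. The gene paqr6.L, a membrane progestin receptor, had at most 104 CPM early and 269, 368 and 243 CPM at stage 61 (log2 fold change 2.29, SE 0.19), a call lost under 2 settings. The gene mllt11.L, expressed in neurons, had at most 122 CPM and 354, 409 and 493 CPM (log2 fold change 2.14, SE 0.20), a call lost under 4 settings. The metallothionein gene mt4.L, which binds zinc and copper, went from at most 4.38 CPM to 90.3, 84.1 and 78.9 CPM (log2 fold change 4.69, SE 0.15).

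The heat shock protein 70 gene hspa1a.L had at most 0.373 CPM early and 13.9, 11.6 and 17.6 CPM at stage 61 (log2 fold change 6.34, SE 0.45), and hspa1a.S rose by 6.11 (SE 0.67). The cation channel gene trpm2.L, which opens under oxidative stress, went from at most 0.623 CPM to 17.1, 17.8 and 7.03 CPM (log2 fold change 6.21, SE 0.55). The BCL2 family gene bok.S rose by 2.25 (SE 0.27) and lost the call under 2 settings. It was the 1 of 33 cell death genes called higher (3.03%) and 0 were called lower, against 3.27% and 4.98% of all genes. By the adjusted p alone 3 of the 33 were higher and 7 lower (median -0.09). Their summed level was 394 to 439 CPM early and 352, 339 and 347 CPM at stage 61. Of 34 genes of iron and oxidant defense, 6 (17.6%) were called lower, among them the iron exporter slc40a1.L (-2.44), and mt4.L was the 1 called higher (2.94%). An unnamed gene model, MGC84484, had at most 0.384 CPM early, no counts at stage 55 and 11.3, 12.2 and 6.34 CPM at stage 61. Its level in the lone stage 66 sample was 0.803 CPM, so that among the stages described here it was highest at stage 61.

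Red blood cell genes went both ways. Of 14 tested, 3 were called higher, all of them globin copies, and 5 lower, namely the globins hbz, hbd.L and hba4.L and both copies of the anion exchanger slc4a1. The call of hba4.L was lost under 2 settings. The globin copy hbg1.L had at most 2.05 CPM early, 0.229 CPM at stage 55 and 13.4, 2.83 and 19.9 CPM at stage 61 (log2 fold change 3.90, SE 0.53), with stage 61 replicate 2 low. The copy hbg2.L had 92.9 CPM at stage 55 and 39.3, 25.9 and 53.3 CPM at stage 61 against at most 13.1 CPM early, and its call was lost under 2 settings. The globin hbd.L had between 21.6 and 113 CPM early and 0.329, 0.425 and 0.691 CPM at stage 61 (log2 fold change -6.80, SE 0.49). Blood content varied between samples, with a summed level of 479 to 2570 CPM early and 805, 562 and 781 CPM at stage 61.

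Among the lists, those of cell division had the largest shares called lower. For mitosis 60 of 66 genes (90.9%) were called lower, for DNA replication 42 of 58 and for radial glia, the stem cells that line the ventricle, 16 of 46 (34.8%), against 4.98% of all genes. The summed mitosis level was 1980 to 2170 CPM early and 250, 194 and 192 CPM at stage 61, and that of radial glia 9150 to 11100 CPM and 2450, 2330 and 1900 CPM. Most of the early radial glia sum came from fabp7.L, with means of 6390 CPM early, 5620 CPM at stage 55 and 731 CPM at stage 61. By the adjusted p alone, 38 of the 46 radial glia genes were lower and 3 higher (median log2 fold change -1.68), against 22% and 21.8% of all genes. Of 15 genes of the fetal type, RNA-binding and growth factors that keep cells in an early state, 9 (60%) were called lower. The chromatin gene hmga2.L had between 136 and 177 CPM (median 157) early, 9.13 CPM at stage 55 and 6.15, 0.708 and 4.38 CPM at stage 61 (log2 fold change -5.34, SE 0.54), and lin28b.L fell by 4.46 (SE 0.25) and igf2bp3.L by 4.22 (SE 0.20). Genes of proneural and immature neurons were more often lower than higher. Of 50 tested, 10 were called lower and 0 higher, and 37 had a negative log2 fold change (median -0.51). By the adjusted p alone 26 were lower and 12 higher. The summed level, in which abundant genes weigh most, was 11000 to 11800 CPM early and 11700, 11600 and 11200 CPM at stage 61.

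The copies of a gene mostly moved the same way. In 6473 pairs both copies were tested, and in 227 at least 1 copy was called higher. In 51 of these both copies were called, and in the other 176 pairs the copy that was not called also had a positive log2 fold change in 137. Of all genes tested, 50.4% had a positive value. At least 1 copy was called lower in 427 pairs, and both were in 167. In 221 of the 260 pairs with 1 copy called lower, the other copy was negative too. The pairs called higher together included mbp, mag, cnp, ugt8, ermn and myrf of myelin, thibz and thrb of the hormone response, gja1 and hepacam of astroglia, and nefh. They also included the zinc finger gene zbtb20 (zbtb20.L 4.08, zbtb20.S 2.91), the growth factor fgf1 (3.96 and 2.96), the estrogen receptor esr1 (2.31 and 2.76), the phospholipid transfer gene pltp (2.61 and 2.37) and the hypoxia factor epas1 (2.18 and 2.26), values that are log2 fold changes of the .L and .S copy in that order. These 5 genes were picked from the 51 after their values were seen.

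**Figure D5:**
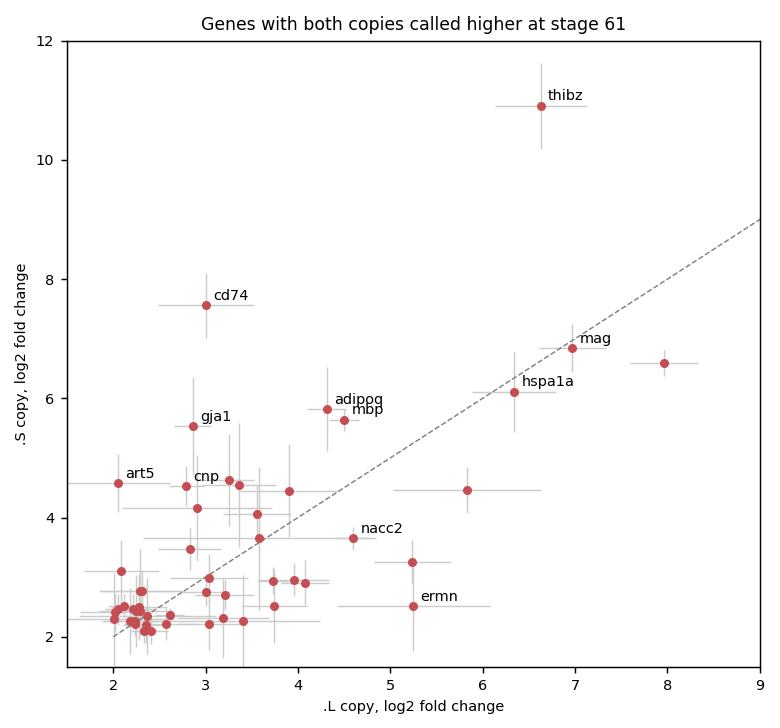
Log2 fold change at stage 61 against the mean of stages 44 and 46 of the .L copy (horizontal axis) and the .S copy (vertical axis) for 51 genes with both copies called higher. Bars are 1 SE and the dashed line marks equal values. Most points lie near the line, and thibz, cd74, gja1 and art5 lie above it, with a larger change in the .S copy.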

How the data were processed

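Midbrain RNA was amplified (Ovation RNA-Seq System V2) and sequenced as single-end reads. The authors used STAR 2.5.2a for alignment (X. laevis assembly v9.2) and HTSeq 0.11.1 for counting, and the deposited table of raw counts (49109 genes, 30 samples) was used here. The treatment of reads that map to several places, and of strand, is not given in the sources used here. Normalized tables made with DESeq2 1.22.2 were not used.

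The 12 midbrain samples of stages 44, 46, 55 and 61, with 6960387 to 11016124 counts each, were fitted together, with a coefficient per stage. Genes passed edgeR 4.0.16's filter (minimum count 10, minimum total 15), library sizes were scaled by TMM, and stage 61 was compared with the mean of stages 44 and 46 by the quasi-likelihood F test (robust), adjusted by Benjamini-Hochberg. The SE was taken as |log2 fold change|/√F. Levels are CPM after TMM. A group without counts was given a floor of 3 counts. The steps were tested on simulated data. Depth limits genes of a few CPM most, where single reads set the values.

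Of 16193 genes named only by an NCBI number, 3718 took a symbol from RefSeq (v10.1, names only), among them mag, cntnap1, nefh, scn4b, acan, tapbp, npas4, th and prl.2. Genes named were the 20 called higher with the largest change (a symbol, at least 5 CPM at stage 61, no overlap), the 15 with the largest gain in CPM, the 10 with the largest fall, up to 6 members called per direction and the most abundant member of each of 50 lists, and those nearest the threshold. Other list members, namely second copies, receptors and defining markers (such as thra, thrb.S, cnp, ermn, gal3st1.S, hepacam, tapbp.L, adamts4.L, camk2b.L, vsnl1.S, scn2b.L, slc1a2.L, pdgfra, nr3c1, th.S, ptprc.L, spi1.L, en2.S and otx2.L), were named after their values were seen. The members and lists were chosen with earlier results of these data known. Same-numbered replicates did not deviate together (r across genes -0.046 to 0.036), so they were not paired. Alternatives covered RLE scaling, DESeq2 1.42.0, filters, samples in the fit, a replicate block, thresholds, the reference stage, thinned counts and each sample left out. Stage 49 entered only the scaling of stage 66, and stage 66 (1 sample) was described only. Promoter motifs were not examined. Some results are not reported here.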

Additional observations from a re-analysis of the deposited data

Results flagged for a closer look

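Of 49 lists with a summed level, 3 had a sample among the 6 of stages 44 and 46 that stood apart from the other 5 by a gap test at the 95% level, and in each it was stage 46 replicate 1. Its summed level was 148 CPM for interferon response genes against 162 to 169 CPM in the others, 454 CPM for clock genes against 386 to 410 CPM, and 601 CPM for monoamine and acetylcholine genes against 519 to 538 CPM. Chance flags about 5% of such groups.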

How the results depend on the processing

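The counts of genes called higher (873) and lower (1330) moved by over 1.5 times with a log2 threshold of 1 (2762 and 3078). The number higher also moved with no filter on low counts (1391) and when a gene had to be called against stage 44 and against stage 46 separately (548). With each sample left out in turn the counts were 872 to 983 higher and 1306 to 1458 lower. With the replicate block they were 867 and 1334, with 836 and 1303 genes shared with the fit without it, and of the genes named in the text it ended the calls of pomc.L and p2ry6.S and took adamtsl5.S and fam19a2-like.L past the threshold (2.10 and 2.02). Without stage 44 replicates 1 and 2, the libraries rich in muscle transcripts, an alternative chosen after seeing the data, they were 799 and 1199. Of 237 named genes called, all 237 kept their direction under the 21 alternatives that refit them, and 65 lost the call under at least 1. In 6 of 49 lists, with medians up to 0.24 in size, the median changed sign under at least 1 alternative, and corticosteroid response was one of them. No scaling moved the median of all genes by over 0.1. Both TMM and RLE assume that most genes are unchanged, so this cannot tell whether all genes shifted together.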

Other observations

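In 3 pairs of copies the copies were called in opposite directions. The cadherin gene cdh1.L (E-cadherin) went from 0.953 to 8.94 CPM with a log2 fold change of 3.26, and cdh1.S from 1.08 CPM to no counts. The LIM protein gene csrp2.L went from 7.58 to 31.2 CPM (log2 fold change 2.05) and csrp2.S from 7.40 to 1.25 CPM (-2.53). The protease gene adam28.1.L went from 0.922 to 3.42 CPM (2.04) and adam28.1.S from 13.3 to 1.36 CPM (-3.27).

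Closest to the threshold of 2 among significant genes with a symbol, ces3.L, omg.L and p2ry6.S lay just inside it (2.01, 2.01 and, after rounding, 2), and mettl21c.S, fam19a2-like.L and adamtsl5.S just outside (2 and 2 after rounding, and 1.99).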
